A study of Mus musculus with 78 samples.

Results

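Ifitm1, Ifitm2 and Ifitm3 encode interferon-induced transmembrane proteins and were followed through early mouse development, from the blastocyst to the germ layers. The 3 genes were found by symbol in each of the 3 tables of RNA levels, among 22563 genes that the tables share, and all 3 passed the filter on low values that 13493 genes passed. They were chosen by a measured value, the large gap in their RNA level between epiblast and visceral endoderm, so that gap is described below without a test.

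All groups used here were embryos of C57BL/6N females and DBA/2N males with no engineered allele named in the labels, sequenced as polyadenylated RNA after Smart-Seq2, a full-length amplification suited to few cells. The in vivo groups were the inner cell mass (ICM) and trophectoderm (TE) at E3.5, the ICM at E4.0, the epiblast at E5.5 and E6.5 with its visceral endoderm (VE), and the 4 tissues endoderm, mesoderm, primitive streak and ectoderm at E7.5. Embryos at E3.5 and E4.0 came from superovulated females, and their tissues were separated by immunosurgery and lysed directly. Embryos at E5.5 to E7.5 came from natural matings, and their RNA was extracted with a column kit. The culture groups were superovulated embryos flushed at E4.5 and grown in CMRL 1066 medium with fetal bovine serum for 1, 2 or 4 days. After 4 days the epiblast and VE were separated by enzyme digestion and dissection. For the shorter cultures the sample names speak of whole embryos whereas the protocol describes ICM isolation, so these libraries are called cultured embryos. Each group had 2 libraries, 30 in all. No label says whether 2 libraries of a group came from separate litters, so p-values measure only the spread between these libraries, which may be technical. The other 48 samples of the series were not analysed here.

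IFITM proteins are small membrane proteins of the cell surface and of endosomes. They hinder the fusion of enveloped viruses with the host membrane and are induced by interferons through JAK and STAT signalling. In the mouse embryo Ifitm1 and Ifitm3, also known as mil-2 and fragilis, are known as genes of the proximal epiblast and of nascent primordial germ cells, and Ifitm3 is a classic marker of germ cell competence. Pluripotent and some other stem cells are known to express IFITM genes without an interferon stimulus.

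The genes lie side by side on chromosome 7 in the order Ifitm5, Ifitm2, Ifitm1, Ifitm3, Ifitm6 in the RefSeq annotation of GRCm38.p6. Their promoter windows, 250 bases before to 50 bases after the start, are shown because letters linked to interferon signalling differ between them. Sequences are RefSeq's on GRCm38.p6, in the order of the genes on the chromosome and each 5′ to 3′ on the gene's own strand. The windows are chr7:140955912-140956211 for Ifitm2 (minus strand), chr7:140967826-140968125 for Ifitm1 (plus strand) and chr7:141010695-141010994 for Ifitm3 (minus strand). Capitals mark matches on either strand to GAAA followed after any 2 bases by a second GAAA, the core of the interferon-stimulated response element (ISRE) bound by interferon-activated factors, or to TTCNNNGAA, the gamma-activated site (GAS) bound by STAT dimers.
Ifitm2: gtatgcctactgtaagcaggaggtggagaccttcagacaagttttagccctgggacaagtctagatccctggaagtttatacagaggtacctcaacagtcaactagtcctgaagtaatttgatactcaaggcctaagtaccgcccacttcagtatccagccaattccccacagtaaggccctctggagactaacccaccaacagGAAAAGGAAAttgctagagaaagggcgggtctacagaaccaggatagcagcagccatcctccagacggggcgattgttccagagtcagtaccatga
Ifitm1: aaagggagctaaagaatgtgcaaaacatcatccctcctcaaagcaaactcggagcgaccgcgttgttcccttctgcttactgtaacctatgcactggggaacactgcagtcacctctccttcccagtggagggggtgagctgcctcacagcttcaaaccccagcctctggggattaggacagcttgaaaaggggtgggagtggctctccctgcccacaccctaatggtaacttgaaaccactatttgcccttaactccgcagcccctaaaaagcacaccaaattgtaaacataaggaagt
Ifitm3: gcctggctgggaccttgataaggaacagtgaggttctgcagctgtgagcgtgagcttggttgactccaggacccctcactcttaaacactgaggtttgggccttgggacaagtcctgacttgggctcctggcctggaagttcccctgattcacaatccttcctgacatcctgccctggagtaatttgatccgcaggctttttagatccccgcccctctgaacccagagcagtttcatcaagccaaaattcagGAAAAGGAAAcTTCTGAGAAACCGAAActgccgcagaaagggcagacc
The Ifitm3 window held 2 ISRE cores and 1 GAS match within its last 50 bases, downstream of the start, and the GAS match overlapped the second core by 3 bases. The Ifitm2 window held 1 ISRE core beginning 46 bases before the start, and it has the same 10 letters as the first core of Ifitm3. No match to either motif was found in the Ifitm1 window. Among 32851 promoter windows of the same length, 3.44% held an ISRE core and 8.30% a GAS match. The T-box site GGTGTGA and the LEF/TCF site ATCAAAG, present in 3.98% and 3.73% of all windows, matched none of the 3. The windows held 4 CpG sites at Ifitm2, 5 at Ifitm1 and 5 at Ifitm3, against a median of 7 over all windows.

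Levels are FPKM, fragments scaled to transcript length and library size, as the authors deposited them. Read depth is not in these tables, so no counting interval can be given. Library sums over genes ran between 272055 and 580771 FPKM, and the correlation between replicates of log2(FPKM+1) ran between 0.898 in 2-day cultured embryos and 0.994 in E7.5 mesoderm. The labelled tissues carried their markers: the 10 VE markers summed to at most 25.0 FPKM in the epiblast libraries and to between 2741 and 8096 FPKM in the VE and E7.5 endoderm libraries. Markers of maternal immune and decidual cells summed to between 0.280 and 8.47 FPKM in the 30 libraries. A gene is called here when its log2 fold was 1 or beyond in either direction and limma, fitted to all 15 groups at once, gave it a Benjamini-Hochberg adjusted p under 0.05. Since the 2-day culture libraries had the lowest replicate correlation, calls of the in vivo comparisons that differ in a fit of the 11 in vivo groups alone are given beside the first. Ifitm1, Ifitm2 and Ifitm3 are close copies, and how reads shared between them were counted is not given in the sources used here, so the division of the signal among them is uncertain. In these bulk samples fewer expressing cells and less RNA per cell cannot be told apart. Whether libraries overlap is given below as description only. With 2 libraries per group, ranges can separate without a true difference, and the share of all genes that do so was not counted.

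**Figure D1:**
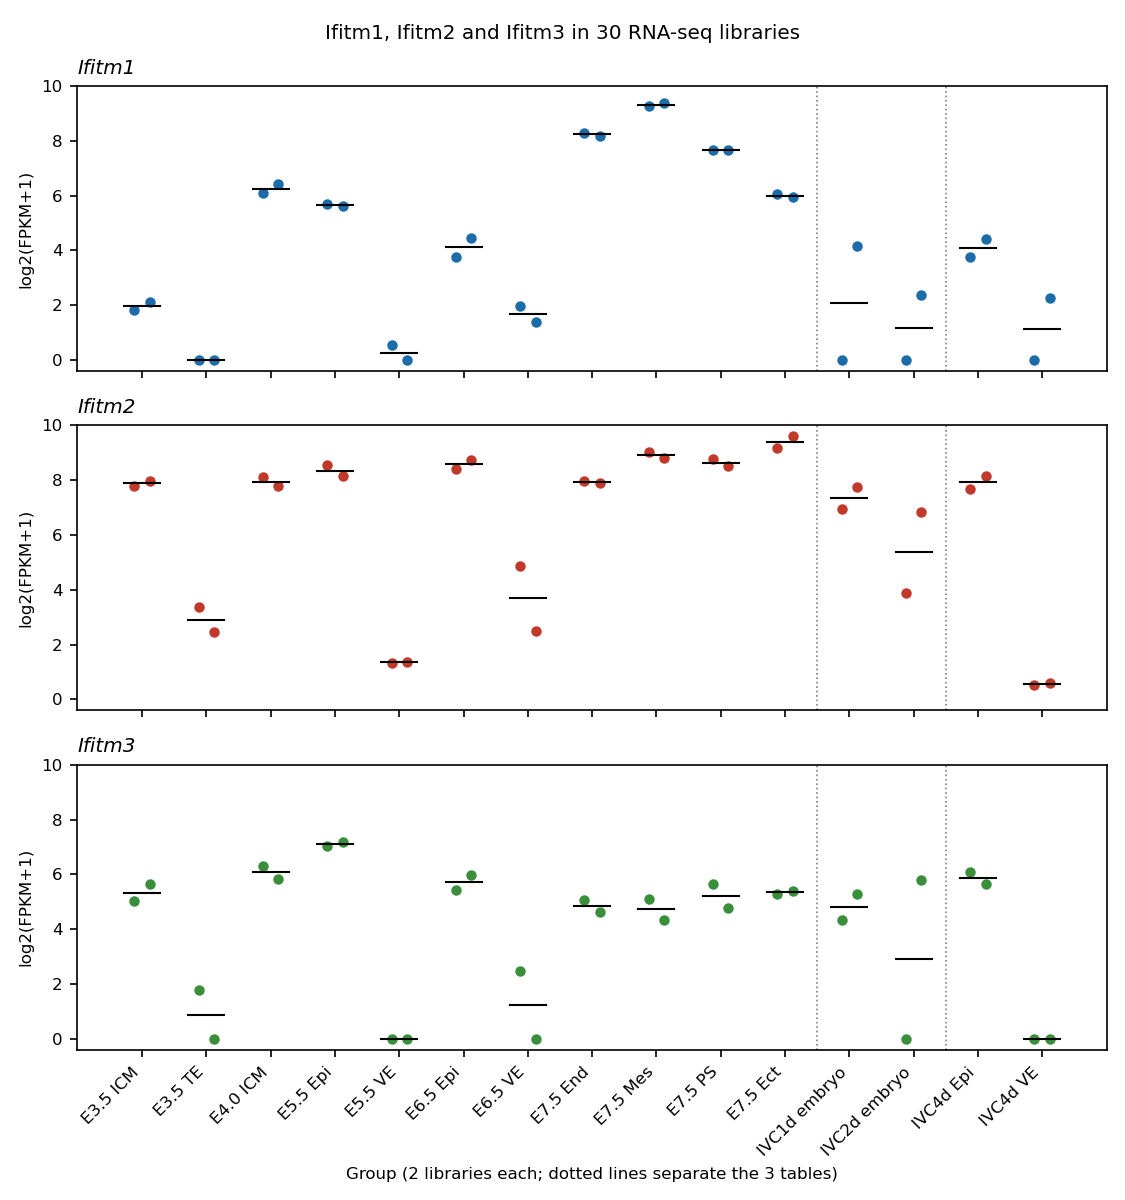
Level of each gene, as log2(FPKM+1), in the 30 libraries of 15 groups. Points are libraries (replicate 1 left of replicate 2), bars are group means, and dotted lines separate the tables. Ifitm2 stands high in ICM, epiblast and E7.5 tissues and low in TE and VE, while Ifitm1 reaches its highest level, 658 FPKM, in E7.5 mesoderm.

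All 3 genes were selected on higher levels in epiblast than in VE, and they show it at E5.5, at E6.5 and after 4 days of culture. At E5.5 Ifitm2 had 370 and 284 FPKM in epiblast, against 1.52 and 1.60 FPKM in VE. At E6.5 it had 343 and 423 FPKM in epiblast, against 28.6 and 4.64 FPKM in VE. After 4 days of culture it had 206 and 282 FPKM in epiblast, against 0.432 and 0.534 FPKM in VE. The libraries did not overlap at any of these times, and the log2 folds of epiblast over VE were 6.99, 4.88 and 7.35.

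Ifitm3 had 129 and 145 FPKM in E5.5 epiblast and was listed at 0 in both E5.5 VE libraries. At E6.5 it had 41.8 and 62.8 FPKM in epiblast, against 4.53 and 0 FPKM in VE, a log2 fold of 4.47. After 4 days of culture it had 67.5 and 48.8 FPKM in epiblast and was listed at 0 in both VE libraries. Of 1285 genes at high levels in all libraries, or in all except a single one, 0 were listed at 0 in any library. Those high in every library could not be at 0. The count therefore does not test the zeros of a gene that varies between tissues, such as Ifitm3.

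Ifitm1 was the least abundant of the 3 in the epiblast. It had 50.4 and 48.8 FPKM in E5.5 epiblast, against 0.455 and 0 FPKM in VE, a log2 fold of 5.39. At E6.5 it had 12.5 and 21.2 FPKM in epiblast, against 2.96 and 1.64 FPKM in VE, a log2 fold of 2.42. After 4 days of culture it had 12.6 and 20.6 FPKM in epiblast, against 0 and 3.80 FPKM in VE, a log2 fold of 2.97. No epiblast library overlapped a VE library, and the gap of Ifitm1 was smaller on the log2 scale at E6.5 and in culture than at E5.5. For all genes tested, 36.7% were called between epiblast and VE at E5.5, 16.5% at E6.5 and 24.5% after 4 days of culture.

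The E6.5 VE libraries differed from each other. Replicate 1 held Ifitm2 at 7.47% of the E6.5 epiblast mean and replicate 2 at 1.21%. Ifitm3 stood at 8.66% in replicate 1 and was listed at 0 in replicate 2, whereas Ifitm1 stood at 17.5% in replicate 1 and 9.74% in replicate 2. The 10 epiblast markers went both ways. For 5 of them replicate 1 was at least 4 times higher: Pou5f1, a core pluripotency factor, stood at 5.37% in replicate 1 and 0.540% in replicate 2, Tdgf1, the Nodal co-receptor Cripto, at 9.90% and 1.22%, and Nanog at 11.3% and 1.24%, with Sox2 and Pou3f1 alike. For the other 5 the replicates were within 1.5 times of each other and higher in percent than Ifitm1: Utf1 stood at 21.1% and 21.6%, Dnmt3b at 22.5% and 19.4%, L1td1 at 21.9% and 18.5%, Otx2 at 99.3% and 108% and Fgf5 at 170% and 184%. The whole list summed to 453 and 432 FPKM in replicates 1 and 2, with none at 0. The part of epiblast RNA in the E6.5 VE values was not tested.

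**Figure D2:**
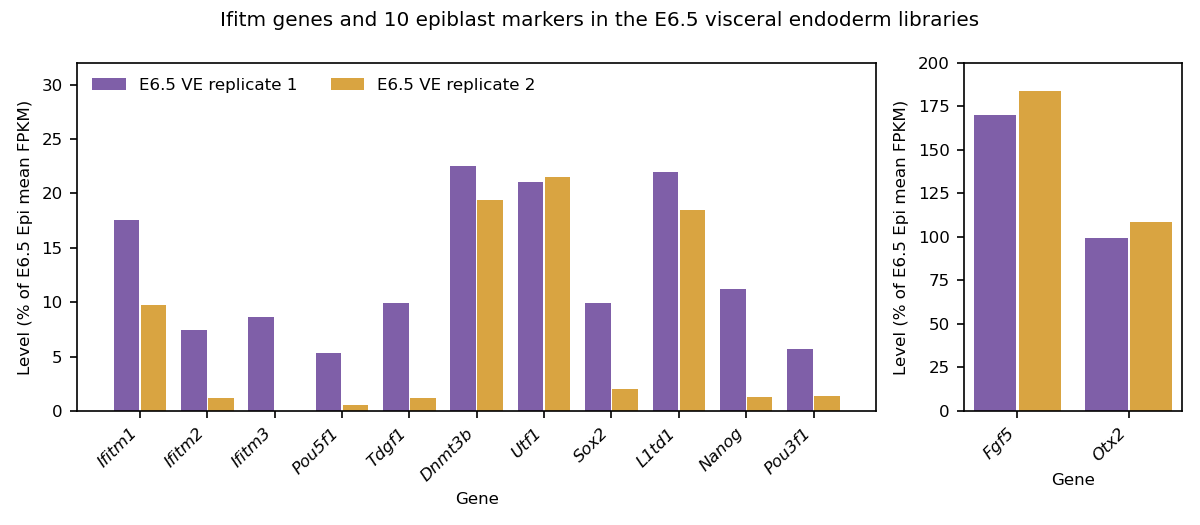
Level of the Ifitm genes and of the 10 epiblast markers in each E6.5 VE library, as a percent of the E6.5 epiblast mean in FPKM. Bars start at 0, and the right panel has its own axis for Fgf5 and Otx2. Replicate 1 exceeds replicate 2 for the 3 Ifitm genes and for 7 of the 10 markers, of which 5 differ at least 4 times, while Utf1, Otx2 and Fgf5 are higher in replicate 2.

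The same genes separated the parts of the blastocyst, a comparison that the choice of the genes did not use. At E3.5 the ICM, which gives rise to the embryo proper, was set against the TE, the outer layer that forms placental tissue. Ifitm2 had 219 and 253 FPKM in ICM, against 9.29 and 4.48 FPKM in TE, and was higher by a log2 fold of 4.97 (SE 0.665, adjusted p 1.38e-05 in limma). Ifitm3 had 31.7 and 48.8 FPKM in ICM, against 2.41 and 0 FPKM in TE, a log2 fold of 4.45 (SE 1.09, adjusted p 0.00582). Ifitm1 had 2.51 and 3.33 FPKM in ICM and was listed at 0 in both TE libraries. The groups did not overlap for any of the 3 genes, a description for which the share over all genes was not counted. Of the 3, 2 were called higher, against 9.54% of all genes called higher and 17.3% called either way. At an unadjusted p all 3 were under 0.05.

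Ifitm1 missed the threshold at E3.5 with an adjusted p of 0.131 and was called with an adjusted p of 3.57e-05 in the fit of in vivo libraries alone, where 11.7% of all genes were called higher. The call of Ifitm3 was lost without ICM replicate 2 (adjusted p 0.0588) or without TE replicate 2 (adjusted p 0.0642). TE markers, such as Cdx2 and Krt8, summed to 233 and 340 FPKM in the ICM libraries and to 2651 and 4082 FPKM in the TE libraries. Epiblast markers summed to 973 and 988 FPKM in ICM, against 74.7 and 108 FPKM in TE, where 2 and 3 of 10 were at 0, and their part in the low TE values of Ifitm2 was not tested.

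Between E3.5 and E4.0 Ifitm1 rose in the ICM, and it was the 1 gene of the 3 that was called. Ifitm1 had 67.5 and 84.0 FPKM in E4.0 ICM, against 2.51 and 3.33 FPKM in E3.5 ICM, a log2 fold of 4.29 (SE 0.881, adjusted p 0.00134 in limma). The authors' deposited values per tissue for Ifitm1 show a smaller rise, from 9.80 FPKM in E3.5 ICM to 81.9 FPKM in E4.0 ICM. Ifitm2 had 273 and 222 FPKM in E4.0 ICM, overlapping the 219 and 253 FPKM of E3.5 ICM. Ifitm3 had 78.3 and 55.9 FPKM in E4.0 ICM, against 31.7 and 48.8 FPKM in E3.5 ICM, without overlap. The adjusted p was 0.998 for Ifitm2 and 0.714 for Ifitm3, and 20.6% of all genes were called, 15.8% being higher in E4.0 ICM. The median log2 fold of all genes was 0.27 here. With a pseudocount of 0.1 the log2 fold of Ifitm1 was 4.66 and its adjusted p 0.0625.

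From the E4.0 ICM the lineages were followed into both E5.5 tissues. In E5.5 epiblast 0 of 3 were called against E4.0 ICM by limma, and 0 of 3 had an unadjusted p under 0.05, where 17.6% of all genes were called. The log2 folds of E5.5 epiblast over E4.0 ICM were 0.40 for Ifitm2 (adjusted p 0.760), 1.04 for Ifitm3 (adjusted p 0.582) and -0.59 for Ifitm1 (adjusted p 0.723), each with no overlap between the libraries. In E5.5 VE all 3 fell relative to E4.0 ICM, against 25.7% of all genes called lower and 35.4% called either way. The log2 fold was -6.59 for Ifitm2 (adjusted p 2.55e-07 in limma) and -5.98 for Ifitm1 (adjusted p 2.36e-05). Ifitm3, at 0 in both VE libraries, was called with an adjusted p of 1.86e-04. The median log2 fold of all genes was -0.31. The epiblast and VE libraries here and below also enter the gap by which the genes were chosen. The ICM and E5.5 tissues differed in mating and RNA preparation, so stage and preparation cannot be told apart.

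Within each lineage the step to E6.5 differed between the genes. In epiblast Ifitm1 had 12.5 and 21.2 FPKM at E6.5, against 50.4 and 48.8 FPKM at E5.5, and Ifitm3 had 41.8 and 62.8 FPKM at E6.5, against 129 and 145 FPKM at E5.5. Neither pair of groups overlapped, while Ifitm2, at 343 and 423 FPKM at E6.5 and 370 and 284 FPKM at E5.5, did. None of the 3 was called, or had an unadjusted p under 0.05, in the fit of 15 groups, where 0.978% of all genes were called, with log2 folds of -1.55 for Ifitm1 (adjusted p 0.668), -1.40 for Ifitm3 (adjusted p 0.833) and 0.23 for Ifitm2 (adjusted p 1). In the fit of in vivo libraries alone, Ifitm1 was called lower with an adjusted p of 0.00308, where 1.36% of all genes were called lower.

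In VE, Ifitm2 had 28.6 and 4.64 FPKM at E6.5, against 1.52 and 1.60 FPKM at E5.5, and was called higher (log2 fold 2.34, SE 0.665, adjusted p 0.0116 in limma). Over all genes 24.7% were called higher in this comparison and 27.2% either way, with a median log2 fold of 0.50. The call of Ifitm2 was lost without E6.5 VE replicate 1, with a log2 fold of 1.14 and an adjusted p of 0.260, and without E5.5 VE replicate 1, with an adjusted p of 0.0699. Of the 10 epiblast markers, 1 was called higher, 0 lower and 9 were not called. The 1 was Pou5f1 (log2 fold 2.58, adjusted p 0.0379), with the same library high. Ifitm1 had 2.96 and 1.64 FPKM in E6.5 VE, against 0.455 and 0 FPKM in E5.5 VE, a log2 fold of 1.42 with an adjusted p of 0.238. It was called with an adjusted p of 8.64e-04 in the fit of in vivo libraries alone, where 29.3% of all genes were called higher.

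At E7.5, during gastrulation, the genes diverged in their levels among the germ layers. The primitive streak is the site where epiblast cells leave the epithelium, mesoderm and endoderm are their products, and ectoderm is what stays in the epithelium. Ifitm1 had 312 and 292 FPKM in endoderm, 623 and 658 FPKM in mesoderm, 200.2 and 200.3 FPKM in primitive streak and 65.6 and 60.5 FPKM in ectoderm. These ranges do not overlap, and E6.5 epiblast, at 12.5 and 21.2 FPKM, lies below all of them. In mesoderm Ifitm1 ranked 94 and 71 from the top among 22563 genes.

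Ifitm2 had its highest level in ectoderm, at 583 and 785 FPKM. It had 252 and 235 FPKM in endoderm, 520 and 448 FPKM in mesoderm and 436 and 365 FPKM in primitive streak. Ifitm3 had 32.7 and 23.6 FPKM in endoderm, 33.4 and 19.4 FPKM in mesoderm, 49.1 and 26.2 FPKM in primitive streak and 38.3 and 40.8 FPKM in ectoderm. The Ifitm3 ranges of primitive streak overlapped those of the other 3 tissues, and endoderm and mesoderm overlapped each other. Thus the tissue with the highest mean was mesoderm for Ifitm1, ectoderm for Ifitm2 and, among tissues that overlap, ectoderm for Ifitm3.

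Ifitm1 rose in primitive streak over E6.5 epiblast by a log2 fold of 3.54 (SE 0.881, adjusted p 0.0202 in limma). It was the 1 gene of 3 called there, where 2.56% of all genes were called higher and 3.74% either way. The call was lost without any 1 of the 4 libraries, with adjusted p-values between 0.0729 and 0.200 and log2 folds between 3.18 and 3.90, and with a pseudocount of 0.1 (adjusted p 0.511). In the fit of in vivo libraries alone its adjusted p was 1.77e-07, with 3.85% of all genes called higher. The corresponding log2 folds were 0.07 for Ifitm2 and -0.50 for Ifitm3, both with an adjusted p of 1. In ectoderm over E6.5 epiblast the log2 folds were 1.89 for Ifitm1 (adjusted p 0.514), 0.83 for Ifitm2 (adjusted p 0.822) and -0.36 for Ifitm3 (adjusted p 1), and none was called, against 1.07% of all genes; 1 of 3, Ifitm1, had an unadjusted p under 0.05.

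Between the E7.5 tissues none of the 3 was called, or had an unadjusted p under 0.05, in the fit of 15 groups. The log2 fold of Ifitm1 was 1.65 in primitive streak over ectoderm (adjusted p 0.621, with 1.98% of all genes called), 1.67 in mesoderm over primitive streak (adjusted p 0.715, with 3.38% called) and -1.08 in endoderm over mesoderm (adjusted p 0.620, with 10.2% called). In the fit of in vivo libraries alone Ifitm1 was called in all of these. Its adjusted p was 4.60e-04 for ectoderm over E6.5 epiblast, where 2.63% of all genes were called. For primitive streak over ectoderm it was 9.17e-04, with 3.10% of genes called. For mesoderm over primitive streak it was 5.10e-04, with 5.08% called, and for endoderm over mesoderm 0.00811, with 13.5% called. For Ifitm2 the log2 folds of the same 3 comparisons between E7.5 tissues were -0.76, 0.27 and -0.99, and for Ifitm3 they were -0.14, -0.48 and 0.12, with no call in either fit.

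For all 3 genes the E7.5 endoderm libraries lay above the E6.5 VE libraries. The E6.5 VE libraries enter the gap by which the genes were chosen, so low VE values were favoured beforehand. Ifitm1 had 312 and 292 FPKM in E7.5 endoderm, against 2.96 and 1.64 FPKM in E6.5 VE, a log2 fold of 6.55 (SE 0.881, adjusted p 3.91e-05 in limma). Ifitm2 had 252 and 235 FPKM in endoderm, against 28.6 and 4.64 FPKM in VE, a log2 fold of 4.24 (SE 0.665, adjusted p 2.17e-04). Ifitm3 had 32.7 and 23.6 FPKM in endoderm, against 4.53 and 0 FPKM in VE, a log2 fold of 3.61 (SE 1.09) that missed the threshold with an adjusted p of 0.0639. Ifitm3 was called without E6.5 VE replicate 1 (adjusted p 0.0421) and in the fit of in vivo libraries alone (adjusted p 9.80e-04). Of the 3 genes 2 were called higher, where 3.39% of all genes were called higher and 4.26% either way, and 3 in the fit of in vivo libraries alone, where 4.87% of all genes were called higher.

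Markers of both endoderm lineages were present in E7.5 endoderm and in E6.5 VE. VE markers, such as Afp and Ttr, summed to 8096 and 7388 FPKM in E7.5 endoderm, against 6765 and 7452 FPKM in E6.5 VE, and 0 of 10 were called between them by limma, with 1 at an unadjusted p under 0.05. Definitive endoderm markers summed to 1360 and 1345 FPKM in E7.5 endoderm, with Trh the highest, against 612 and 660 FPKM in E6.5 VE, but 2 of 10 were called higher (Trh and Cldn8), 2 lower (Gsc and Hhex) and 6 not, Sox17 and Foxa2 among them, with a median log2 fold of -0.072. Mesoderm markers, such as Mesp1 and Hand1, summed to 35.4 and 31.7 FPKM in E7.5 endoderm, against 372 and 347 FPKM in E7.5 mesoderm, and 9 of 10 were called lower, against 2.24% of all genes. Epiblast markers summed to 95.3 and 120 FPKM in E7.5 endoderm. The part of each cell type in the endoderm values of the Ifitm genes was not tested.

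**Figure D3:**
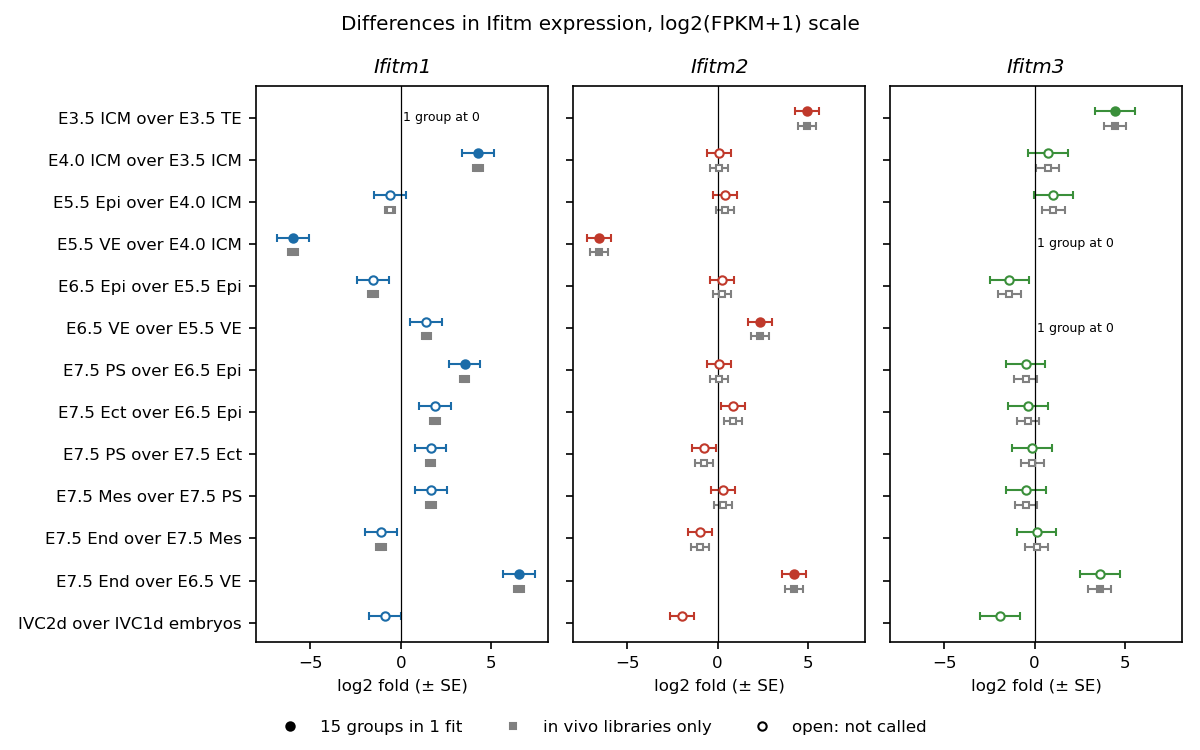
Log2 fold with its standard error for each gene in the 13 tested comparisons, on the log2(FPKM+1) scale. Circles come from the fit of 15 groups and grey squares from the fit of in vivo libraries alone; filled symbols are called. The error bars of Ifitm1 are visibly shorter without the culture libraries, and its log2 fold is largest, at 6.55, in E7.5 endoderm over E6.5 VE.

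The share of each gene in their summed level followed the same pattern. Ifitm2 made up 84.5% of the summed FPKM in E3.5 ICM, 63.4% in E4.0 ICM, 63.7% in E5.5 epiblast and 84.7% in E6.5 epiblast. At E7.5 its share was 42.4% in endoderm, 42.1% in mesoderm, 62.8% in primitive streak and 87.0% in ectoderm. Ifitm1 made up 1.05% in E3.5 ICM and 3.73% in E6.5 epiblast, but 52.7% in E7.5 endoderm and 55.6% in E7.5 mesoderm. Among the ICM, epiblast and E7.5 groups in vivo, the share of Ifitm3 was highest in E5.5 epiblast, at 26.7%, and lowest in E7.5 mesoderm, at 2.29%. Among these groups the summed level was highest in E7.5 mesoderm, at 1151 FPKM.

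**Figure D4:**
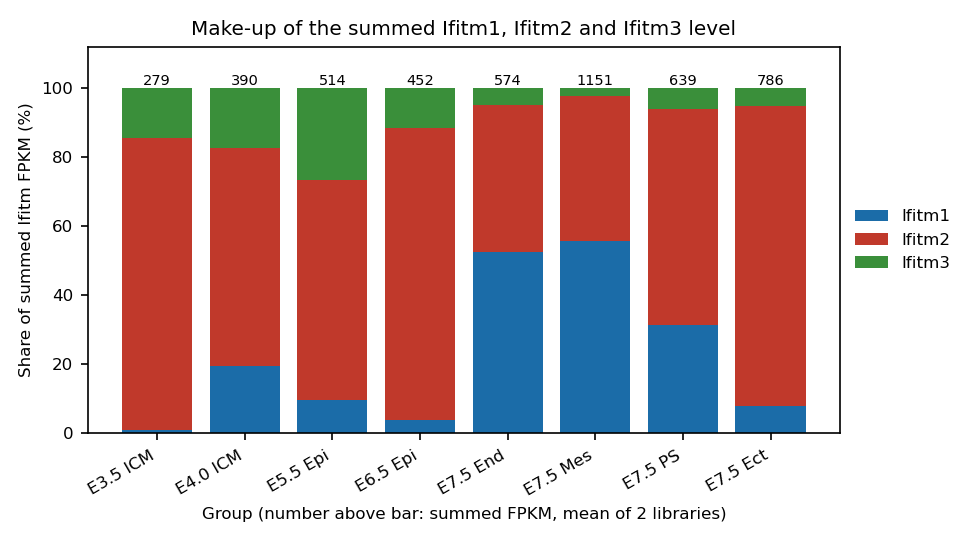
Share of Ifitm1, Ifitm2 and Ifitm3 in their summed FPKM, as percent of the mean of 2 libraries, in the ICM, epiblast and E7.5 groups. The number above each bar is the summed FPKM. The share of Ifitm1 is 55.6% in mesoderm, 31.3% in primitive streak and 8.02% in ectoderm.

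In order of their in vivo levels, the genes divide the groups differently. For Ifitm1 the order ran from mesoderm, E7.5 endoderm and primitive streak through E4.0 ICM, ectoderm, E5.5 epiblast and E6.5 epiblast, with no overlap between neighbours. Below these, E3.5 ICM and E6.5 VE overlapped, and E5.5 VE and TE came last. For Ifitm2, ectoderm and mesoderm led without overlap, while primitive streak, E6.5 epiblast and E5.5 epiblast overlapped, as did E4.0 ICM, E7.5 endoderm and E3.5 ICM. The lower end held E6.5 VE and TE, which overlapped, and E5.5 VE. For Ifitm3, E5.5 epiblast stood alone at the top, and E4.0 ICM, E6.5 epiblast, E3.5 ICM and the E7.5 tissues formed a chain of overlapping ranges, and E6.5 VE, TE and E5.5 VE were lowest.

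Across the 11 in vivo group means, the Pearson correlation of log2(FPKM+1) was 0.94 between Ifitm2 and Ifitm3, 0.81 between Ifitm1 and Ifitm2, and 0.70 between Ifitm1 and Ifitm3. The rank correlations were lower, at 0.56, 0.74 and 0.36. These describe 11 tissues that share a lineage and a library method, and the high values go with the low levels of all 3 genes in TE and VE. Since the genes were chosen for their gap between epiblast and VE, part of the correlation was fixed by that choice. Among 6760 genes of at least 10 FPKM in their highest in vivo group, the genes whose means followed Ifitm1 most closely were Phlda2 (0.94), Tspan2 (0.93), Rabl5 (0.93), Dync2li1 (0.93) and Spata6 (0.92). Phlda2, an imprinted gene of the placenta, was also highest in E7.5 mesoderm, at 2595 FPKM, and lowest in TE, at 0.0830 FPKM. Those closest to Ifitm2 were Zfp825 (0.97), Nxt1 (0.96), Pik3r4 (0.96), Phf6 (0.96) and Ralgps2 (0.95), all lowest in E5.5 VE. Those closest to Ifitm3 were Pola1 (0.94), Gpt2 (0.94), Msh6 (0.94), Msrb2 (0.94) and Psrc1 (0.94), among which Pola1, a DNA polymerase subunit, and Msh6, a mismatch repair factor, serve DNA replication and repair.

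In cultured embryos the replicates of 1 group differed widely. Ifitm2 had 13.9 and 115 FPKM after 2 days, against 122 and 214 FPKM after 1 day, without overlap, a log2 fold of -1.97 (adjusted p 0.0795 in limma). Ifitm3 was listed at 0 in 1 library and had 54.4 FPKM in the other after 2 days, against 19.1 and 38.1 FPKM after 1 day. Ifitm1 was at 0 and 4.19 FPKM after 2 days, against 0 and 16.8 FPKM after 1 day. None of the 3 was called by limma, against 6.46% of all genes, and 1 of 3, Ifitm2, had an unadjusted p under 0.05. The 2-day library with low Ifitm2 and no Ifitm3, replicate 1, also had the lowest epiblast marker sum, 375 FPKM against 1134 FPKM in replicate 2 and 895 and 1256 FPKM after 1 day.

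In that library TE markers summed to 4629 FPKM, against 2425 FPKM in replicate 2, and extraembryonic ectoderm markers to 989 FPKM, against 419 FPKM in replicate 2. The part of these cells in the Ifitm values was not tested. With both libraries of each group, 2.37% of all genes were called lower, and 0 of the 3 Ifitm genes were called. Fits that leave 1 library in a group have no spread of their own there, so only their log2 folds are given for this comparison. Calls and p-values of such fits given elsewhere take their spread from the remaining libraries and share this limit. Without 2-day replicate 2 the log2 folds were -3.45 for Ifitm2 and -4.81 for Ifitm3. Without 2-day replicate 1 they were -0.49 for Ifitm2 and 0.98 for Ifitm3. Without 1-day replicate 1 the log2 fold of Ifitm1 was -2.97.

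Since IFITM genes are targets of interferon signalling, the remainder of that pathway was read from lists of genes named by function. Type I interferon genes were at or near 0: Ifna4 was listed at 0 in every group, and Ifnb1 had a mean of at most 0.0913 FPKM, in E3.5 ICM. Among the receptors, Ifnar1, a type I receptor chain, had a mean of at most 9.75 FPKM and Ifnar2, its partner, at most 17.2 FPKM. Of 30 other interferon-stimulated genes, 29 were in the tables and 16 were tested. Of the 16, 3 ever reached 20 FPKM in a library, among them Bst2, the virus-tethering protein tetherin, at 127 FPKM. The 13 in the tables that were not tested reached at most 3.78 FPKM.

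In E5.5 epiblast over E4.0 ICM, 9 of the 16 rose and 1 fell, with a median log2 fold of 1.41 against 0.05 for all genes and 8.67% of all genes called higher and 8.94% lower. The filter that let in the 16 counted the E5.5 epiblast libraries too. Genes high mainly there could pass, which favours higher calls in that tissue. Gbp2 and Gbp3, of the 9, reached at most 3.98 and 2.35 FPKM in any library, in E5.5 epiblast. Irgm1, an immunity-related GTPase, had 18.8 ± 9.53 FPKM in E5.5 epiblast (SD, n = 2) and was at 0 in E4.0 ICM (adjusted p 1.14e-06 in limma). Oasl2, of the oligoadenylate synthetase family, averaged 15.7 ± 7.80 FPKM in E5.5 epiblast and 0.0611 ± 0.0864 FPKM in E4.0 ICM (adjusted p 2.39e-06). Bst2 averaged 98.1 ± 41.4 FPKM in E5.5 epiblast and 9.22 ± 7.01 FPKM in E4.0 ICM (log2 fold 3.40, adjusted p 1.57e-04), and Xaf1 was the gene that fell, a call that was lost without E4.0 ICM replicate 1 or E5.5 epiblast replicate 2. The transcription factor Irf1 averaged 44.6 ± 3.65 FPKM in E5.5 epiblast and 5.19 ± 0.141 FPKM in E4.0 ICM (log2 fold 2.88, adjusted p 2.82e-05), while Stat3 and Socs3 were among those that fell. The count of 9 higher was 8 without any 1 of the 4 libraries and 5 with the 2 groups fitted alone, and stage and preparation cannot be told apart here either.

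At E6.5 in epiblast 4 of the 16 fell relative to E5.5 and none rose, against 0.548% of all genes called lower. The 4 were Gbp2, Oasl2, Irgm1 and Gbp3, each with its highest level in an E5.5 epiblast library. The limit of the filter given above for E5.5 epiblast therefore favours these falls too. In the fit of in vivo libraries alone 1 of the 16 was called higher, where 2.5% of all genes were called either way. With array weights 1 was called higher too. Oasl2 averaged 2.18 ± 0.365 FPKM at E6.5 and 15.7 ± 7.80 FPKM at E5.5 (SD, n = 2 each; log2 fold -2.32, adjusted p 0.0105 in limma). The count was 1 without E5.5 epiblast replicate 2 or without either E6.5 epiblast library, 0 with a pseudocount of 0.1 and 0 with the 2 groups fitted alone. Zbp1, a sensor of left-handed nucleic acid, averaged 0.121 ± 0.171 FPKM at E6.5 and 16.0 ± 3.05 FPKM at E5.5 (adjusted p 9.79e-05). Irf1 averaged 1.31 ± 0.955 FPKM in E7.5 ectoderm and 26.7 ± 1.10 FPKM in E6.5 epiblast, and fell (log2 fold -3.65, adjusted p 1.80e-05). Of the 16, 0 were called by limma in E7.5 ectoderm or in primitive streak against E6.5 epiblast, with 4 and 5 at an unadjusted p under 0.05. In the fit of in vivo libraries alone 2 were called lower in ectoderm and 3 lower in primitive streak. In E7.5 mesoderm over primitive streak Usp18, a brake on the type I receptor, was called higher (log2 fold 1.92, adjusted p 7.86e-06) and Bst2 lower (log2 fold -2.97, adjusted p 0.00185), where 1.57% of all genes were called higher and 1.81% lower. Bst2 was not called without mesoderm replicate 2, and 3 genes were called higher in the fit of in vivo libraries alone.

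Between epiblast and VE the interferon-stimulated genes were largely called higher in epiblast at E5.5, while the receptors and signal carriers went both ways. At E5.5, 10 of the 16 interferon-stimulated genes were called higher in epiblast and 0 lower, against 27.1% and 9.60% of all genes. The limit of the filter given above for E5.5 epiblast holds for this count too. At E6.5 the counts were 4 higher and 1 lower, against 6.95% and 9.58% of all genes. The 4 were 1 without any 1 of the 4 libraries and 2 without a filter. After 4 days of culture the counts were 3 higher and 1 lower, against 10.8% and 13.6% of all genes, and Bst2, the 1 lower, was not called without epiblast replicate 1 or without VE replicate 1. Bst2 averaged 14.2 ± 9.71 FPKM in 4-day epiblast and 65.1 ± 39.5 FPKM in 4-day VE (SD, n = 2 each; log2 fold -2.15, adjusted p 0.00670 in limma). Of 17 receptor and signalling genes, 3 were called higher and 3 lower at E5.5, 1 higher and 4 lower at E6.5, and 2 higher and 8 lower after 4 days of culture. Leaving out 1 library took these counts to 1 higher at E5.5 (without epiblast replicate 2 or VE replicate 1), 2 lower at E6.5 (without epiblast replicate 2 or VE replicate 2), and 5 lower (without either epiblast library) or 1 higher (without epiblast replicate 2 or VE replicate 1) in culture. Irf1 was called higher in epiblast at all 3 times, while Ifngr1, a receptor chain for interferon gamma, and Il10rb were called lower at all 3.

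**Figure D5:**
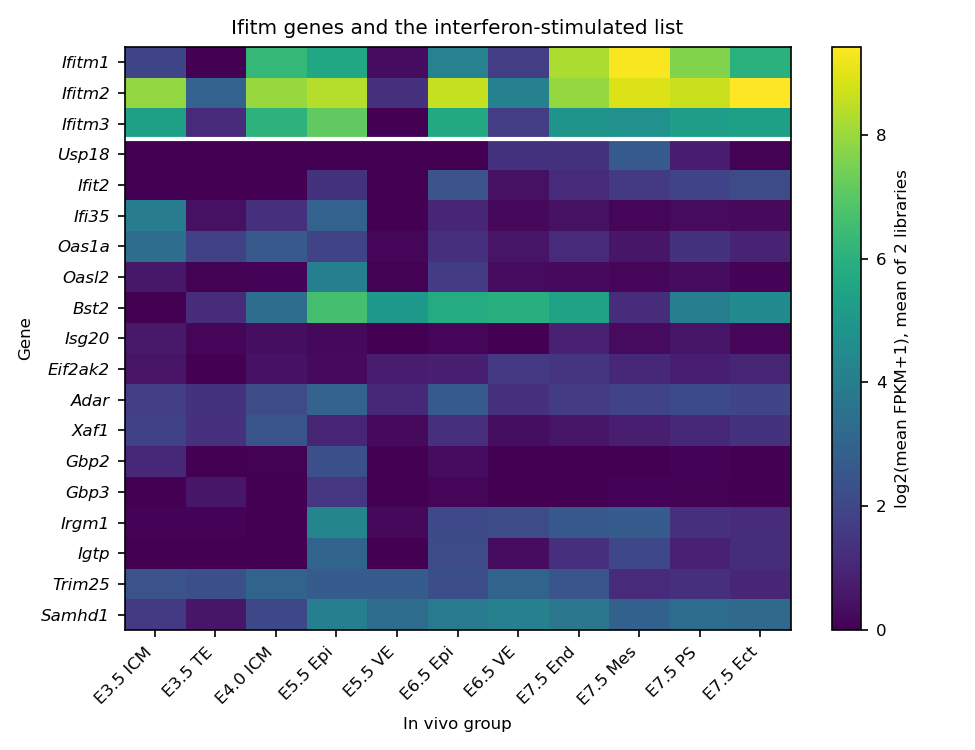
Mean level, as log2(mean FPKM+1) of 2 libraries, of Ifitm1, Ifitm2 and Ifitm3 (above the white line) and of the 16 tested interferon-stimulated genes in the 11 in vivo groups. Most of the 16 are near 0 in most groups, with the brightest column in E5.5 epiblast, where Bst2 averages 98.1 FPKM.

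Other lists gave context for the known roles of the family. The 4 other Ifitm genes in the tables, Ifitm5, Ifitm6, Ifitm7 and Ifitm10, had group means of at most 2.70, 2.54, 1.79 and 0.352 FPKM, and 3 of them were tested. Ifitm5, a gene of bone, was the 1 called, at 0 in 2-day and 2.70 ± 1.64 FPKM in 1-day cultured embryos (SD, n = 2 each; adjusted p 1.43e-04 in limma). Of 16 genes of primordial germ cells, 5 were called higher and 1 lower in E3.5 ICM over TE, against 9.54% and 7.75% of all genes, among them Prdm14, a regulator of germ cell fate, with a log2 fold of 3.61 (adjusted p 2.25e-09). The 5 were 3 without ICM replicate 1, and the 1 lower, Elf4, was lost without either ICM library or TE replicate 1. In E5.5 VE over E4.0 ICM, where all 3 Ifitm genes fell, 9 of the 16 fell and 2 rose, against 25.7% and 9.66% of all genes, the 9 including Prdm14 and Nanog. The 2 that rose were 1 without either ICM library or VE replicate 1. At E7.5 1 of the 16 was called in primitive streak over E6.5 epiblast, where 3.74% of all genes were called: Tfap2c (log2 fold 1.91, adjusted p 0.0462), a call lost without any 1 of the 4 libraries. In the fit of in vivo libraries alone 1 of the 16 was called lower in that comparison, where 6.40% of all genes were called. In mesoderm over primitive streak 0 of the 16 were called by limma, against 3.38% of all genes. There, 5 were at an unadjusted p under 0.05 and 4 were called lower in the fit of in vivo libraries alone.

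Among 13 genes for proteins that bind or process IFITM proteins, 3 rose and 1 fell in E4.0 ICM over E3.5 ICM, against 15.8% and 4.80% of all genes, and the 1 that fell, Cd63, was lost without either E3.5 ICM library or E4.0 ICM replicate 1. Cd81, a tetraspanin, averaged 48.3 ± 16.5 FPKM in E4.0 ICM and 0.249 ± 0.0297 FPKM in E3.5 ICM (SD, n = 2 each; log2 fold 5.26, adjusted p 3.31e-08 in limma). Nedd4, a ubiquitin ligase of IFITM3, averaged 103 ± 16.8 FPKM in E4.0 ICM and 9.15 ± 1.38 FPKM in E3.5 ICM (log2 fold 3.35, adjusted p 5.28e-09). Cd9 and Cd63, also tetraspanins, fell in E5.5 epiblast over E4.0 ICM with log2 folds of -3.24 and -3.38. Of the 13, 0 were called by limma in E6.5 over E5.5 epiblast, with 2 at an unadjusted p under 0.05, where 0.978% of all genes were called. In mesoderm over primitive streak and in primitive streak over ectoderm 0 were called too, with 1 each at an unadjusted p under 0.05 and 3.38% and 1.98% of all genes called.

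The genes nearest to the cluster were low, and Sigirr ran opposite to it. In the GRCm38.p6 order, Pgghg (listed as Athl1) and Ifitm5 precede the 3 genes, and Ifitm6, B4galnt4, Pkp3 and Sigirr follow. Apart from Ifitm5 and Ifitm6, given above, Athl1 had at most 5.04 FPKM, B4galnt4 at most 3.52 FPKM and Pkp3 at most 3.90 FPKM as a mean in any in vivo group. Sigirr, an inhibitory receptor of interleukin 1 signalling, had means of 1.39 FPKM in epiblast and 21.2 FPKM in VE at E5.5, and of 1.11 FPKM in epiblast and 28.9 FPKM in VE at E6.5, the reverse order to the Ifitm genes. Psmd13, a proteasome subunit farther before the cluster, had means of 121 FPKM in epiblast and 16.3 FPKM in VE at E5.5, and of 196 FPKM in epiblast and 137 FPKM in VE at E6.5.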

How the data were processed

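RNA levels were taken from the FPKM tables that the authors deposited for in vivo tissues, 1-day and 2-day cultured embryos, and 4-day cultured tissues. The submitters' processing notes name the mouse build mm9 and the tools TopHat2 2.0.11 and Cufflinks 2.0.2, with no role or order. Smart-Seq2 libraries of polyadenylated RNA are not described as stranded in the labels, and read depth is not in the tables. Columns were mapped to samples by their names, with 0 columns left over.

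From there, values at or below 1e-06 were set to 0, and log2(FPKM+1) of the 13493 genes that reached 1 FPKM in 2 or more libraries was fitted with limma 3.58.1 in R 4.3.3, with a mean-variance trend, as 15 groups of 2 libraries (15 residual degrees of freedom). Fold changes are on that scale, which understates changes of low genes. P-values were Benjamini-Hochberg adjusted over all genes tested. The procedure was tested on simulated data. There, 4-fold shifts were recovered at rates between 65% and 85%, depending on the comparison. For 2-fold shifts the rates lay between 6% and 20%, so most shifts of that size were missed. A gene that was not called may therefore still have changed by about 2-fold, or by more where its spread was wide. In the fit of 15 groups, Ifitm3 in E7.5 endoderm over E6.5 VE was not called at a log2 fold of 3.61 (SE 1.09). Comparisons were made only within a table. Epiblast against VE was described without a test for the Ifitm genes.

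Members and lists were chosen with earlier results of these data known. Named genes were the 3 members, up to 4 called genes per list and comparison by adjusted p, and the 5 genes most like each member; epiblast and endoderm markers, the neighbouring genes and single lost or lower calls were named after their values were seen. The fit was repeated with quantile normalization, array weights, a replicate block, a pseudocount of 0.1, all genes, genes that reached 5 FPKM, the 2 groups of a comparison alone, and 1 library omitted at a time; the fit of in vivo libraries alone was added after the spread of the culture libraries was seen. Promoter windows came from RefSeq (GRCm38.p6). The methylation file was not used here, since it needs gene coordinates of mm9.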

Additional observations from a re-analysis of the deposited data

Results flagged for a closer look

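The change of Ifitm1 between E5.5 and E6.5 ran in opposite directions in the 2 tissues: every E6.5 epiblast library lay below every E5.5 epiblast library, with a log2 fold of -1.55, and every E6.5 VE library lay above every E5.5 VE library, with a log2 fold of 1.42. The log2 change in epiblast minus that in VE was -2.97. This difference was not tested. In the fit of 15 groups neither change was called by limma (adjusted p 0.668 in epiblast and 0.238 in VE), while both were called with in vivo libraries alone. The VE values were low, at 2.96 and 1.64 FPKM at E6.5 against 0.455 and 0 FPKM at E5.5. The median log2 fold of all genes was 0.50 in VE and 0.10 in epiblast.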

How the results depend on the processing

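The alternatives moved calls of single genes more than their log2 folds. With a pseudocount of 0.1, Ifitm1 was no longer called in E4.0 ICM over E3.5 ICM (log2 fold 4.66) or in primitive streak over E6.5 epiblast (3.61), and without a filter the streak comparison was lost too (3.54, adjusted p 0.0586). Quantile normalization turned the uncalled log2 fold of Ifitm2 in E4.0 ICM over E3.5 ICM to -0.11 and ended its call in E6.5 VE over E5.5 VE (1.92). Ifitm1 in E3.5 ICM over TE was called with quantile normalization (adjusted p 0.0435), array weights (0.0306), the 2 groups alone (0.0338) and in vivo libraries alone (3.57e-05). Fitting the 2 groups alone ended calls of Ifitm3 in E3.5 ICM over TE (4.45), Ifitm2 in E6.5 VE over E5.5 VE (2.34) and Ifitm2 in E7.5 endoderm over E6.5 VE (4.24). Ifitm1 was newly called in E6.5 epiblast over E5.5 epiblast (-1.55) and E6.5 VE over E5.5 VE (1.42) with array weights and with in vivo libraries alone, in mesoderm over primitive streak (1.67) and endoderm over mesoderm (-1.08) with these and with the 2 groups alone, and in ectoderm over E6.5 epiblast (1.89) and primitive streak over ectoderm (1.65) with in vivo libraries alone. Ifitm3 in E7.5 endoderm over E6.5 VE (3.61) was newly called with array weights and in vivo libraries alone. Without the culture libraries the SE of Ifitm1 was 0.267 in place of 0.881. It was 0.501 in place of 0.665 for Ifitm2 and 0.631 in place of 1.09 for Ifitm3. The residual degrees of freedom were 11 in place of 15. The cause of the changed calls was not tested.

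Leaving out 1 library at a time, log2 folds ran from 3.57 to 5.34 for Ifitm3 in E3.5 ICM over TE, 1.14 to 3.53 for Ifitm2 in E6.5 VE over E5.5 VE, 3.18 to 3.90 for Ifitm1 in primitive streak over E6.5 epiblast and 2.38 to 4.85 for Ifitm3 in E7.5 endoderm over E6.5 VE. Uncalled values changed sign for Ifitm2 in E4.0 ICM over E3.5 ICM (-0.082 to 0.22) and primitive streak over E6.5 epiblast (-0.082 to 0.22), and for Ifitm3 in primitive streak over ectoderm (-0.58 to 0.31) and endoderm over mesoderm (-0.26 to 0.50). For 2-day over 1-day cultured embryos they ran from -2.97 to 1.19 for Ifitm1, -3.45 to -0.49 for Ifitm2 and -4.81 to 0.98 for Ifitm3. With the replicate block, no call of the 3 genes changed (Ifitm2 in E6.5 VE over E5.5 VE 2.34, adjusted p 0.0142); replicate numbers do not pair the samples, with correlations of deviations between -0.268 and 0.438.

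The number of all genes called moved by more than 1.5 times in most comparisons. With the 2 groups alone limma called 0 genes, in place of 132, in E6.5 over E5.5 epiblast (2054 at an unadjusted p under 0.05), 0 in place of 145 in ectoderm over E6.5 epiblast (1396), 0 in place of 267 in primitive streak over ectoderm (1311) and 0 in place of 871 in 2-day over 1-day culture (697). It also called 888 in place of 2333 in E3.5 ICM over TE, and 1056 in place of 2376 in E5.5 epiblast and 2641 in place of 4776 in E5.5 VE over E4.0 ICM. Array weights gave 541 for E6.5 over E5.5 epiblast, 1122 in place of 504 for primitive streak over E6.5 epiblast, 835 in place of 456 for mesoderm over primitive streak and 1111 in place of 575 for E7.5 endoderm over E6.5 VE. Quantile normalization gave 1633 in place of 3670 for E6.5 over E5.5 VE. It changed the split of higher and lower calls there to 610 and 1023 (in place of 3334 and 336), in E5.5 VE over E4.0 ICM to 2150 and 2208 (in place of 1303 and 3473), in E4.0 over E3.5 ICM to 1174 and 1192 (in place of 2130 and 648), in ectoderm over E6.5 epiblast to 118 and 63 (in place of 67 and 78), in primitive streak over ectoderm to 182 and 86 (in place of 225 and 42), in endoderm over mesoderm to 951 and 480 (in place of 1075 and 302) and in E5.5 epiblast over VE to 2424 and 2215 (in place of 3663 and 1295).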

Other observations

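The authors' deposited table of 1 value per tissue gives Ifitm1 as 9.80 FPKM in E3.5 ICM, above both E3.5 ICM libraries, which had 2.51 and 3.33 FPKM. Of 3806 genes that averaged 10 FPKM or more in the E3.5 ICM libraries, 86 (2.26%) have a value in the authors' deposited table more than 1.5-fold outside the range of the 2 libraries, against 0 or 1 gene in each of the other 10 tissues. For Ifitm2 and Ifitm3 the authors' deposited table gives 248 and 50.3 FPKM in E3.5 ICM, against 219 and 253 FPKM and 31.7 and 48.8 FPKM in the libraries.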
